A study of Mus musculus with 8 samples.

Results

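Transcripts of p53, of its classical targets and of the stress-induced polo-like kinases were followed in sorted B220+CD3+ spleen cells of mice. The set held 10 genes, chosen by name from the 17384 genes of the deposited table: Trp53, Mdm2, Cdkn1a, Ccng1, Sesn1, Gadd45a, Gadd45b, Gadd45g, Plk2 and Plk3. All 10 had enough reads to be tested, among 12340 in all. The series compared 4 libraries titled EAF2Faslpr, from Eaf2-/-Faslpr mice, with 4 libraries titled Faslpr, from Faslpr mice, and its stated purpose was to find pathways of apoptosis. Both groups carry the Fas lpr mutation, which impairs the death receptor Fas, so neither group is wild type. Eaf2 encodes a partner of the ELL transcription elongation factors, and the sources used here do not say which part of it was deleted or whether the deletion was present in all cells. Age, sex and animal were not labelled either, so a p-value here covers the spread between libraries only, and that spread may be technical.

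p53, encoded by Trp53, is a transcription factor that DNA damage and other stresses stabilise, and Mdm2 is both its target and the ubiquitin ligase that marks it for destruction. Cdkn1a (p21) stops the cell cycle, Ccng1 (cyclin G1) recruits a phosphatase to Mdm2, and Sesn1 restrains the growth kinase complex mTORC1. The GADD45 proteins bind the kinase Map3k4 upstream of p38 and JNK, while Plk2 and Plk3 are polo-like kinases that mitogens and stress induce. T cells that stain for CD3 and for the B220 form of CD45 accumulate in mice with the lpr mutation because Fas normally removes them.

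Library totals ranged from 15.56 to 18.64 megareads (estimated). Before scaling, 3 reads in a library corresponded to between 0.161 and 0.193 counts per megaread (CPM). All other CPM values are scaled with TMM factors. Eaf2 averaged 4.74 ± 1.05 CPM in EAF2Faslpr cells and 25.5 ± 4.50 CPM in Faslpr cells, each mean ± SD over 4 libraries. That is 18.5% of the Faslpr level, with no overlap between the groups (exact permutation test, two-sided, p = 0.0286, the smallest that 4 against 4 libraries allow). The T cell gene Cd3e stood at 557 ± 39.3 CPM in EAF2Faslpr cells and 602 ± 52.9 CPM in Faslpr cells. Ptprc, the gene of CD45, stood at 2312 ± 114 CPM in EAF2Faslpr cells and 1989 ± 311 CPM in Faslpr cells. Faslpr replicate 4 stood furthest from another library of its group, with a chi-square per degree of freedom of up to 36.7 against 9.46 for the closest pair of replicates. In bulk RNA, fewer cells of a type and less RNA per cell cannot be told apart.

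Both polo-like kinases of the set and 2 of the 3 GADD45 genes rose in EAF2Faslpr cells, Ccng1 fell, and Trp53, Mdm2, Cdkn1a, Sesn1 and Gadd45a did not pass the test. By the quasi-likelihood test of edgeR, adjusted by Benjamini-Hochberg over all 12340 genes, 5 of the 10 genes passed at an adjusted p under 0.05, against 12.1% of all genes tested. The set had 4 genes higher, against 7.14% of all genes, and 1 lower, against 4.96%. The same 5 genes were the ones whose groups did not overlap in CPM, which held for 17.7% of all genes tested. The median log2 fold change was 0.29 over the 10 genes and −0.01 over all genes tested. The 10 genes, and the lists below, were chosen with earlier results of these data known. Their shares therefore describe them and do not test them against all genes.

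The 250 bases before the start of transcription are shown for the 5 genes that passed and for Cdkn1a, whose promoter held the most p53 matches of the set. They were taken by gene ID from RefSeq on build GRCm38.p6, are written 5′ to 3′ on the gene's strand, and carry motif matches in capitals. The capitals mark the cyclic AMP response element (CRE, TGACGTCA) in Plk2 and the p53 half-site in Ccng1 and Cdkn1a. Cdkn1a has another RefSeq start, whose promoter held no match.

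Plk2 (chr13:110394794-110395043, plus strand): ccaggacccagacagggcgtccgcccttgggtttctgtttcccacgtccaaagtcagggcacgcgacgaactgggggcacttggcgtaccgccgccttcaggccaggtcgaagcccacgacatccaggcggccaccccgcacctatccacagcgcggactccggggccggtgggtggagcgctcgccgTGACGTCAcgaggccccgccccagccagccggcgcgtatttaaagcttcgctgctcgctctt
Plk3 (chr4:117133964-117134213, minus strand): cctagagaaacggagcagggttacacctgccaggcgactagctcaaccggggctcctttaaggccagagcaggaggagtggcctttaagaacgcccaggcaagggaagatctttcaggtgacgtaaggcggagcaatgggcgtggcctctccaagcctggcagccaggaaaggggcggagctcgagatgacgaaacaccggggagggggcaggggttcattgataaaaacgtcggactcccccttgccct
Gadd45b (chr10:80929841-80930090, plus strand): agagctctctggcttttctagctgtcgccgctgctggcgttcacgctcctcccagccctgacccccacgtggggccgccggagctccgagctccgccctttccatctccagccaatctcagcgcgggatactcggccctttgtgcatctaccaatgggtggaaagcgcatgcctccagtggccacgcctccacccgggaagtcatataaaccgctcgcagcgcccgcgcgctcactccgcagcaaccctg
Gadd45g (chr13:51846425-51846674, plus strand): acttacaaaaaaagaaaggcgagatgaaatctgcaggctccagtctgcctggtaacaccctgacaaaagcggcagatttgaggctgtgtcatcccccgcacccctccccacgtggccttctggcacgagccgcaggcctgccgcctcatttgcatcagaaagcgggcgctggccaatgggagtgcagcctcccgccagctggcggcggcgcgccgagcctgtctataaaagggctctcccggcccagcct
Ccng1 (chr11:40755287-40755536, minus strand): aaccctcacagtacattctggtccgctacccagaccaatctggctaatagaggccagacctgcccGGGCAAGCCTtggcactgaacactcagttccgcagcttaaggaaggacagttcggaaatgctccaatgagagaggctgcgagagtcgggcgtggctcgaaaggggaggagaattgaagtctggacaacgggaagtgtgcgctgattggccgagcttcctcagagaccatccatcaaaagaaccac
Cdkn1a (chr17:29090729-29090978, plus strand): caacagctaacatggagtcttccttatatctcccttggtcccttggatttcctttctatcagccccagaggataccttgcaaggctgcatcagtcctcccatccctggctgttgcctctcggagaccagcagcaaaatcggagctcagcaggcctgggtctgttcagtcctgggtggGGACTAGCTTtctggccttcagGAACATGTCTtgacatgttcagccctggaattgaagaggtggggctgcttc

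Plk2, Plk3, Gadd45b and Gadd45g held no p53 half-site in their 300-base windows, which run from 250 bases before to 50 bases after the start. Cdkn1a held p53 half-sites 73 and 51 bases before the start, and Ccng1 held one 185 bases before it. Trp53, Mdm2, Gadd45a and Sesn1 each held one as well, so that 6 of the 10 genes had at least 1 match. Over all RefSeq genes with a promoter of this length, 9.55% of 27025 held the half-site on either strand in at least 1 promoter, and 8.36% of the 32851 promoters did. The CRE match of Plk2 lay 62 bases before the start, and 1.79% of all promoters held that motif. An NF-kB site was found only in Trp53 among the 10 genes (8.46% of all promoters). The AP-1 site TGANTCA (7.81% of all promoters) and the CArG box (1.63%) were found in none of the 12 promoters of the set. No match overlapped a match to another motif. A match describes letters only, and its absence says nothing of factors bound elsewhere.

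Plk2 encodes a kinase of centriole duplication and synaptic adjustment that growth signals switch on quickly. Its level was 14.7, 13.0, 18.3 and 18.1 CPM in EAF2Faslpr replicates 1 to 4, and 4.87, 5.18, 2.75 and 7.58 CPM in Faslpr replicates 1 to 4. Every EAF2Faslpr library lay above every Faslpr library. Plk2 was 3.14-fold higher (95% confidence interval 2.11 to 4.67; log2 fold change 1.65, SE 0.26, adjusted p = 0.00254). Leaving out Faslpr replicate 4, the highest of its group, gave a log2 fold change of 1.91, the largest of the alternatives. Leaving out Faslpr replicate 3, the lowest of its group, gave 1.44, the smallest of them.

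Plk3, a kinase of the response to osmotic, oxidative and genotoxic stress, had 20.3, 9.77, 10.6 and 12.4 CPM in EAF2Faslpr cells. In Faslpr cells it had 4.87, 4.89, 6.22 and 4.68 CPM. The groups did not overlap, but EAF2Faslpr replicate 1 stood well above the other 3 libraries of its group. Plk3 was 2.56-fold higher (interval 1.79 to 3.66; log2 fold change 1.36, SE 0.23, adjusted p = 0.00423), and the log2 fold change was 1.08 without EAF2Faslpr replicate 1 (adjusted p = 0.00312). In the GENCODE M21 annotation Plk3 shares 84 of its 2531 exon bases with Tctex1d4 on the opposite strand, a gene with 0 to 4 reads per library here. Plk2 was lowest relative to Plk3 in EAF2Faslpr replicate 1 and in Faslpr replicate 3, the libraries with the most Plk3 in their groups.

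**Figure D1:**
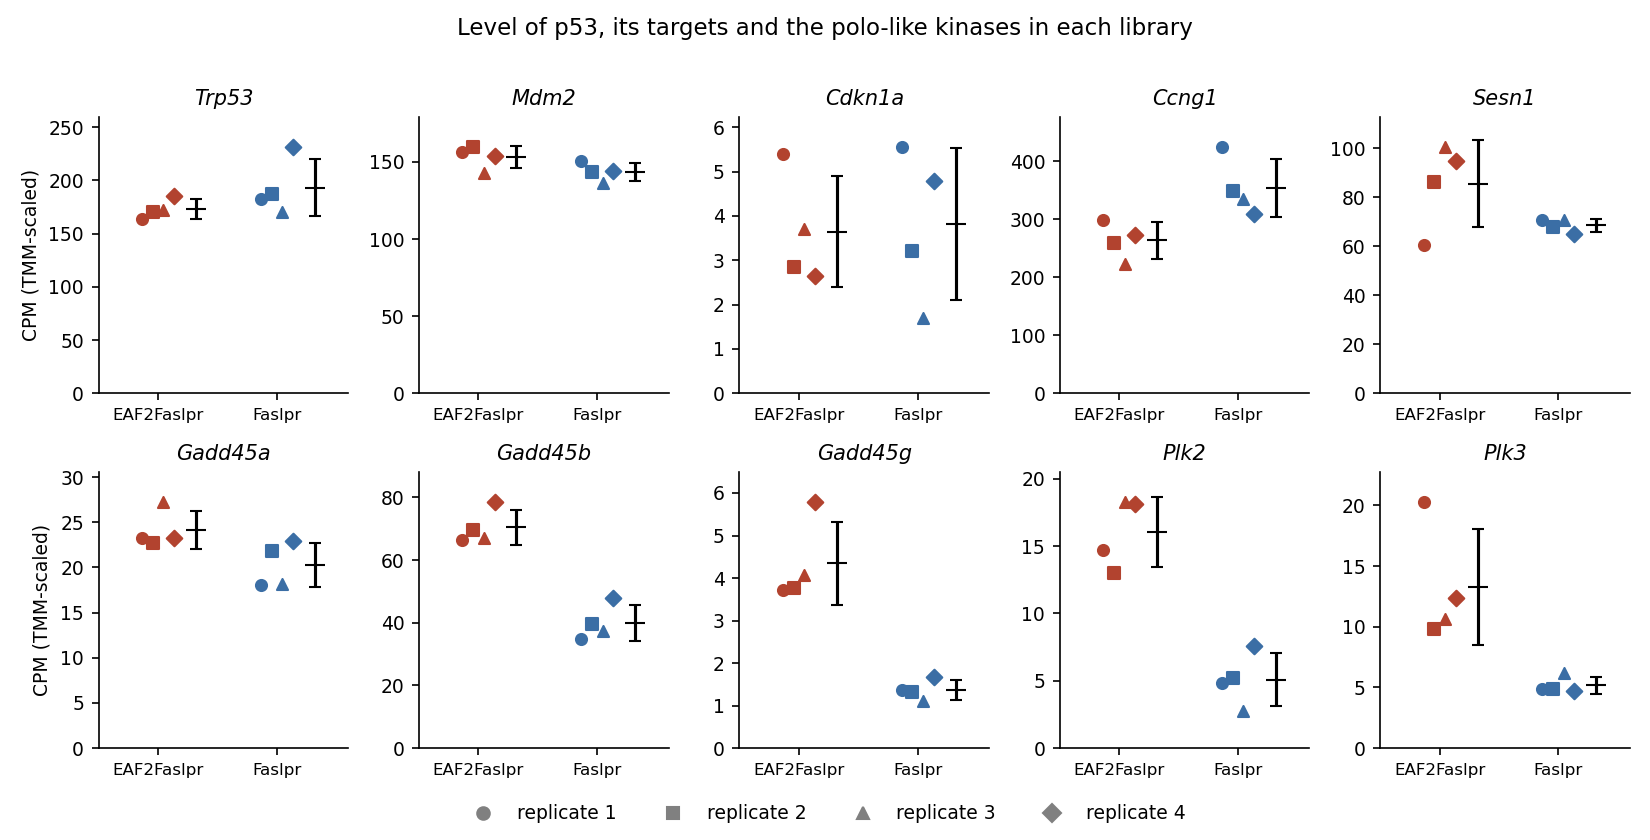
Level of each of the 10 genes in every library, in TMM-scaled CPM on axes that start at 0. Symbols give the replicate number and black bars the mean ± SD of 4 libraries. The EAF2Faslpr points of Plk2, Plk3, Gadd45b and Gadd45g lie above all Faslpr points, those of Ccng1 lie below, and the other genes overlap.

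Gadd45b, which NF-kB is known to induce and which promotes survival and p38 signalling in lymphocytes, had 66.4, 69.7, 67.1 and 78.7 CPM in EAF2Faslpr cells. It had 34.8, 39.7, 37.5 and 47.8 CPM in Faslpr cells. Replicate 4 was the highest library in each group, and the groups did not overlap. Gadd45b was 1.76-fold higher (interval 1.5 to 2.07; log2 fold change 0.82, SE 0.10, adjusted p = 0.000889).

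Gadd45g, known from mouse T cells as a gene of interferon gamma producing responses, had 3.73, 3.77, 4.08 and 5.80 CPM in EAF2Faslpr cells. It had 1.38, 1.31, 1.10 and 1.67 CPM in Faslpr cells. These levels rest on 58 to 105 reads per EAF2Faslpr library and on 20 to 31 reads per Faslpr library, and the groups did not overlap. Gadd45g was 3.17-fold higher (interval 2.23 to 4.52; log2 fold change 1.67, SE 0.23, adjusted p = 0.00137).

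Gadd45a, the family member first described as a p53 target and one whose loss causes lupus-like disease in mice, had 23.3, 22.7, 27.3 and 23.2 CPM in EAF2Faslpr cells. It had 18.1, 21.8, 18.2 and 23.0 CPM in Faslpr cells. The highest Faslpr library lay above the lowest EAF2Faslpr library. The difference did not pass the test (log2 fold change 0.25, 95% interval 0.01 to 0.50, adjusted p = 0.188), and the interval excluded a change as large as that of Gadd45b. Gadd45a shares 337 of 1764 exon bases with E230016M11Rik on the opposite strand, and since the strand setting of the counts is not given, reads of the pair cannot be told apart there.

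The composition of the GADD45 family was compared in TPM, the deposited abundance corrected for transcript length and library size. The 3 genes summed to 188 ± 14.4 TPM in EAF2Faslpr cells and 117 ± 9.85 TPM in Faslpr cells (mean ± SD of 4 libraries). Gadd45b made up 70.0 ± 2.18% of that sum in EAF2Faslpr cells and 63.8 ± 1.41% in Faslpr cells. Gadd45a made up 24.9 ± 2.62% in EAF2Faslpr cells and 33.6 ± 1.37% in Faslpr cells, and Gadd45g made up 5.05 ± 0.79% in EAF2Faslpr cells and 2.57 ± 0.30% in Faslpr cells. Gadd45b was thus the most abundant of the family in both groups.

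Ratios within a library were compared for 9 pairs of the set, picked after the levels had been seen. The ratio of Gadd45b to Gadd45a was 2.37 to 3.27 in EAF2Faslpr libraries and 1.76 to 2.01 in Faslpr libraries. The ratio of Gadd45g to Gadd45a was 0.17 to 0.284 in EAF2Faslpr libraries and 0.0685 to 0.0865 in Faslpr libraries. Neither ratio overlapped between groups, nor did Gadd45g to Gadd45b or Ccng1 to Mdm2. Each of these 4 had an exact two-sided permutation p of 0.0286, the smallest possible, and an adjusted p of 0.0643 over the 9 ratios. None passed the correction, and none could with only 4 of 9 ratios at the smallest possible p, so the correction cannot decide on them. The ratio of Plk2 to Plk3 was 0.565 to 1.35 in EAF2Faslpr libraries and 0.352 to 1.31 in Faslpr libraries, with wide overlap (exact permutation p = 0.486, adjusted p = 0.546).

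**Figure D2:**
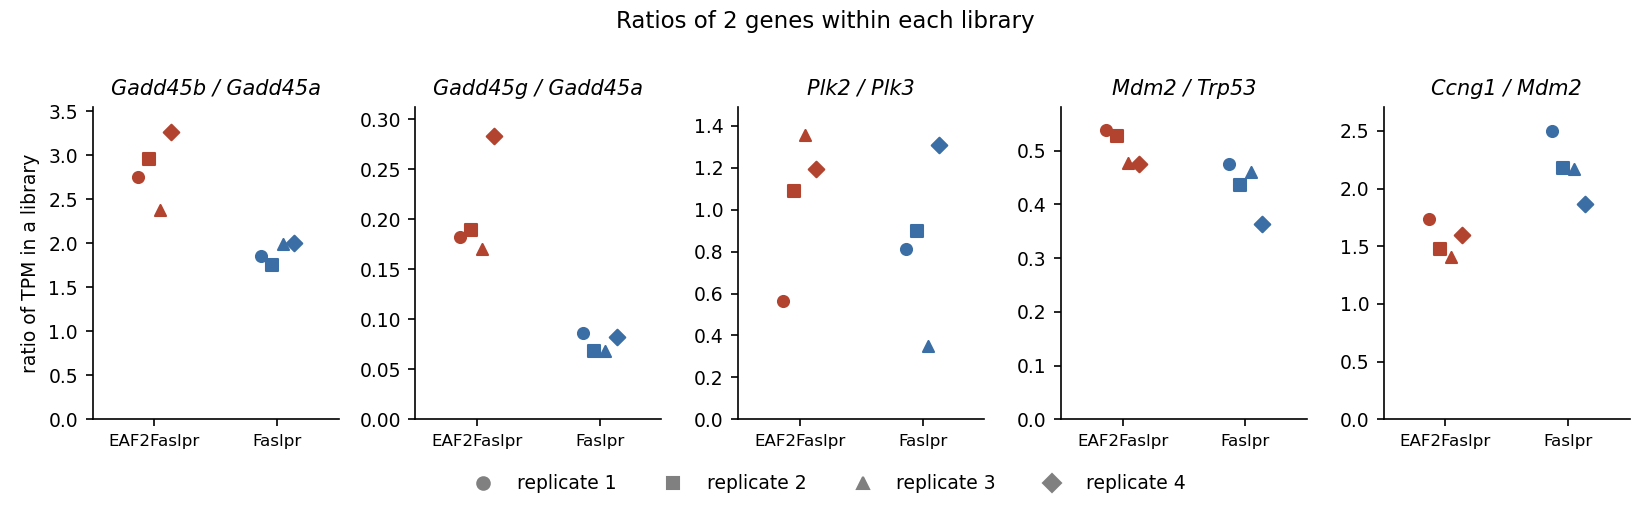
Ratio of the TPM of a pair of genes within each library, for 5 of the 9 ratios compared, on axes that start at 0. Each symbol is 1 library. The groups are apart for Gadd45b to Gadd45a, Gadd45g to Gadd45a and Ccng1 to Mdm2, and overlap for Plk2 to Plk3 and Mdm2 to Trp53.

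Trp53 itself was abundant and did not pass the test. Its level was 164, 171, 172 and 186 CPM in EAF2Faslpr cells and 182, 187, 170 and 232 CPM in Faslpr cells. The groups overlapped, and Faslpr replicate 4 was the highest of all 8 libraries. The log2 fold change was −0.16 (95% interval −0.37 to 0.06, adjusted p = 0.358), and −0.06 without that library.

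Mdm2 had 157, 160, 143 and 154 CPM in EAF2Faslpr cells and 150, 143, 136 and 144 CPM in Faslpr cells. The groups overlapped, and the library to library spread was small in both. The log2 fold change of 0.09 had a 95% interval of −0.05 to 0.24 (adjusted p = 0.415), which leaves room for a fold between 0.967 and 1.18. Relative to Trp53 in the same library, Mdm2 was at 0.475 to 0.539 TPM per TPM in EAF2Faslpr cells and at 0.364 to 0.476 in Faslpr cells (exact permutation p = 0.0571, adjusted p = 0.103).

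Cdkn1a was scarce, with 5.40, 2.84, 3.69 and 2.65 CPM in EAF2Faslpr cells and 5.56, 3.22, 1.71 and 4.79 CPM in Faslpr cells. The groups overlapped over most of their range. These levels rest on 48 to 84 reads per EAF2Faslpr library and 31 to 97 reads per Faslpr library. The log2 fold change was −0.07 (adjusted p = 0.927), its sign turned with the setting, and its interval allowed a fold between 0.549 and 1.65. Part of the gene, 273 of 3553 exon bases, is shared with AC167363.2 on the opposite strand.

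Ccng1 was the gene of the set with the most reads and the only one that fell. It had 298, 259, 223 and 273 CPM in EAF2Faslpr cells and 425, 349, 334 and 309 CPM in Faslpr cells. The groups did not overlap, although the highest EAF2Faslpr library and the lowest Faslpr library were close. Ccng1 was 1.35-fold lower (log2 fold change −0.43, SE 0.11, 95% interval −0.68 to −0.17, adjusted p = 0.0355). The call was lost without EAF2Faslpr replicate 2 (adjusted p = 0.0847), 3 (0.0871) or 4 (0.0706) and without Faslpr replicate 1 (0.0791) or 2 (0.0802). It was also lost without both libraries numbered 4 (0.0516) and when log2 TPM was tested with limma (0.0686 with a pseudocount of 1 and 0.0666 with 0.1).

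Sesn1 had 60.6, 86.4, 101 and 94.9 CPM in EAF2Faslpr cells and 70.8, 67.9, 70.7 and 65.1 CPM in Faslpr cells. EAF2Faslpr replicates 2, 3 and 4 lay above all Faslpr libraries and EAF2Faslpr replicate 1 lay below them. The log2 fold change was 0.32 (95% interval 0.02 to 0.62, adjusted p = 0.17), and 0.45 without EAF2Faslpr replicate 1 (adjusted p = 0.0063). The Sesn1 to Trp53 ratio overlapped between groups (exact permutation p = 0.0857, adjusted p = 0.129).

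**Figure D3:**
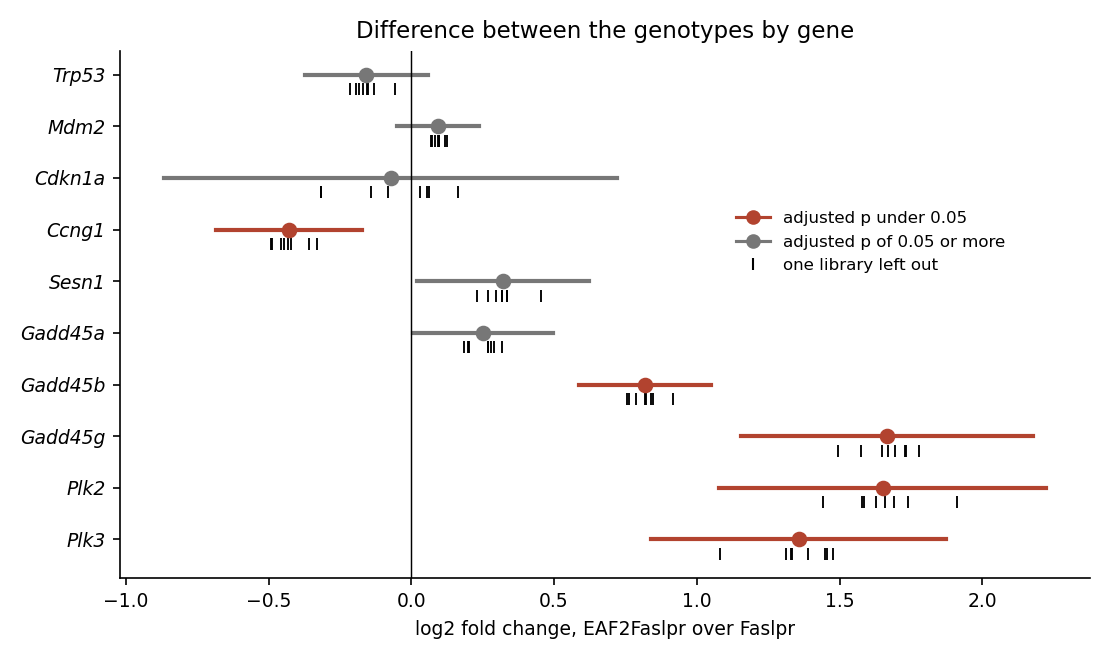
Log2 fold change of each gene, EAF2Faslpr over Faslpr, with its 95% confidence interval (bar) and the values with 1 library left out (ticks). Red marks an adjusted p under 0.05. Every tick of Plk2, Plk3, Gadd45b and Gadd45g lies right of 0 and every tick of Ccng1 left of 0, while those of Cdkn1a lie on both sides.

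On the length-corrected TPM scale the levels of the 10 genes spanned a wide range. In EAF2Faslpr cells the order was Trp53 (223 ± 13.9 TPM), Ccng1 (175 ± 22.7), Gadd45b (132 ± 12.7), Mdm2 (112 ± 6.08), Sesn1 (75.6 ± 15.3), Gadd45a (46.8 ± 3.54), Plk3 (13.8 ± 5.33), Plk2 (13.3 ± 2.18), Gadd45g (9.61 ± 2.32) and Cdkn1a (4.44 ± 1.5). In Faslpr cells it was Trp53 (249 ± 21.4 TPM), Ccng1 (235 ± 39.8), Mdm2 (108 ± 5.47), Gadd45b (74.4 ± 6.91), Sesn1 (60.3 ± 5.13), Gadd45a (39.2 ± 3.37), Plk3 (5.27 ± 1.01), Cdkn1a (4.60 ± 2.03), Plk2 (4.16 ± 1.42) and Gadd45g (3.0 ± 0.38). Between libraries of a group, the coefficient of variation of CPM ranged over the 10 genes from 4.73% (Mdm2) to 36.2% (Plk3) in EAF2Faslpr cells and from 3.93% (Sesn1) to 44.8% (Cdkn1a) in Faslpr cells. Gadd45b stood above Mdm2 in EAF2Faslpr cells and below it in Faslpr cells, and Cdkn1a was last in EAF2Faslpr cells only. Neighbours whose libraries overlapped in EAF2Faslpr cells were Ccng1 with Gadd45b, Plk3 with Plk2, and Plk2 with Gadd45g. In Faslpr cells they were Trp53 with Ccng1 and, at the low end, Plk3, Cdkn1a, Plk2 and Gadd45g, each with the next. By mean TPM over all libraries Trp53 lay above 94.7% of the tested genes, Gadd45b above 84.7%, Plk3 above 28.6% and Cdkn1a above 20.3%.

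**Figure D4:**
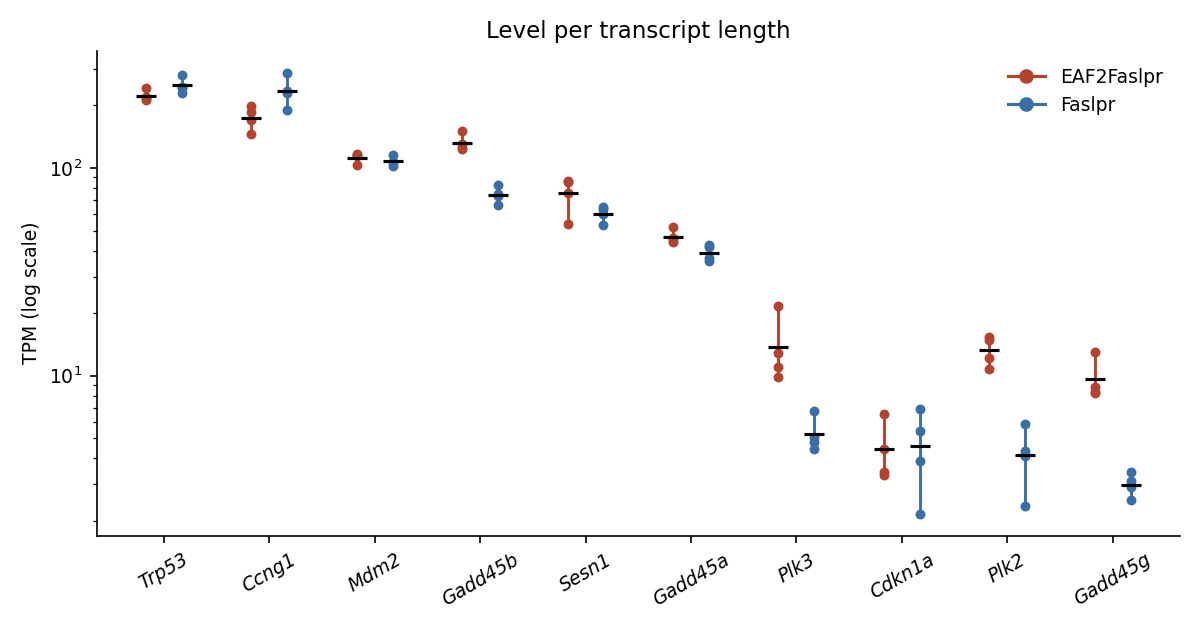
Level per transcript length of the 10 genes, in TPM on a log axis, with EAF2Faslpr libraries left of Faslpr libraries for each gene. Points are libraries, lines their range and black dashes the mean of 4. Trp53 and Ccng1 stand at the top, and Plk3, Plk2, Gadd45g and Cdkn1a stand about an order of magnitude or more below them.

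For each gene that passed, the 3 tested genes with the most similar profile were sought among genes averaging at least 5 CPM. The measure was the root mean square difference of centred log2 CPM over the 8 libraries, with 0.5 CPM added before the log. This addition narrows the profile of a scarce gene more than that of an abundant one. Gadd45g averaged only 4.34 CPM in EAF2Faslpr cells and 1.36 CPM in Faslpr cells, so its neighbours may depend on the addition, which was not tested. Gadd45g lay nearest to Nfkbia, the NF-kB inhibitor that NF-kB itself induces (0.15), then to Rabepk (0.16) and Gem (0.20). Gadd45b lay nearest to Usp36 (0.10), Idh2 (0.10) and Mettl23 (0.11). Plk3 lay nearest to Vcan (0.12), Zdhhc2 (0.13) and Id2 (0.16). Plk2 had no neighbour as close, with Art2b (0.31), the AP-1 subunit Fosb (0.32) and Cldn10 (0.32) first. Ccng1 lay nearest to Gnl3l (0.03), Gsr (0.04) and Coro1c (0.08). These are descriptions over 8 libraries that share the difference between the genotypes.

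Among other targets of p53, 27 of 30 could be tested, and 1 was higher and 3 were lower. These 4 of 27 lie near the 12.1% called over all genes tested, so the list is not set apart by its calls, and it had a median log2 fold change of −0.10. Pmaip1 (Noxa), a killer protein of the BCL2 family, was 1.86-fold higher, at 52.9 ± 14.8 CPM in EAF2Faslpr cells and 28.4 ± 5.30 CPM in Faslpr cells (adjusted p = 0.0143). Abhd4, a lipid hydrolase, was 1.51-fold lower, at 27.2 ± 4.79 CPM in EAF2Faslpr cells and 41.1 ± 2.91 CPM in Faslpr cells (adjusted p = 0.00941). The remaining lower genes, named after their values were seen, were Ddit4, an inhibitor of mTORC1 (1.34-fold, adjusted p = 0.0229), and Psrc1, a spindle protein (2.26-fold, adjusted p = 0.0326). With 1 library left out, Ddit4 kept its call in 4 of 8 fits and Psrc1 in 2 of 8 (adjusted p up to 0.0666 and 0.0897), and Psrc1 also lost it under limma-voom and in both TPM settings. None of the 4 passed without both libraries numbered 4. The classical death gene Bax was not called, with a log2 fold change of −0.22 and an adjusted p of 0.289, and neither was Bbc3 (Puma), with −0.39 and 0.268.

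Among regulators of p53, 0 of 23 tested were higher and 2 were lower, with a median log2 fold change near 0 (−0.003). These 2 of 23 do not exceed the 12.1% called over all genes tested, so the list is not set apart by its calls. Cdkn2a, the locus of the Mdm2 inhibitor ARF and of p16, was 2.67-fold lower, at 1.55 ± 0.17 CPM in EAF2Faslpr cells and 4.13 ± 0.84 CPM in Faslpr cells (adjusted p = 0.00229). Ppp1r13b, a cofactor that directs p53 to death genes, was 1.19-fold lower (adjusted p = 0.0389), and its call was lost whenever any 1 library was left out. Mdm4, the partner of Mdm2, had 466 ± 36.9 CPM in EAF2Faslpr cells and 462 ± 34.5 CPM in Faslpr cells, and did not pass (adjusted p = 0.949).

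Genes of mitosis and replication gave no call among 22 tested (1 at an unadjusted p under 0.05, and 0 calls by DESeq2 or limma-voom). The mitotic relatives of Plk2 and Plk3 were among them. Plk1 averaged 22.5 ± 6.25 CPM in EAF2Faslpr cells and 24.8 ± 6.67 CPM in Faslpr cells (adjusted p = 0.756). Plk4 averaged 27.3 ± 7.84 CPM in EAF2Faslpr cells and 29.3 ± 5.63 CPM in Faslpr cells (adjusted p = 0.803). Of 13 regulators of the G1 phase, Ccnd2 (cyclin D2) was 1.33-fold lower, at 719 ± 63.7 CPM in EAF2Faslpr cells and 955 ± 85.7 CPM in Faslpr cells (adjusted p = 0.0147), and no other passed. This 1 of 13 does not exceed the 12.1% called over all genes tested.

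The kinases through which GADD45 proteins signal gave no call among 10 tested (2 at an unadjusted p under 0.05, 1 call by DESeq2 and 0 by limma-voom). Mapk14, which encodes p38 alpha, had a log2 fold change of −0.29 and an adjusted p of 0.0543. It passed by DESeq2, without Faslpr replicate 4 and without both libraries numbered 4. The other sestrins and the GATOR subunits gave no call among 10 tested (1 at an unadjusted p under 0.05, and 0 by DESeq2 or limma-voom). Sesn3 had 111 ± 21.4 CPM in EAF2Faslpr cells and 77.9 ± 21.5 CPM in Faslpr cells (adjusted p = 0.126).

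Immediate early genes and NF-kB genes were set beside Plk2, Plk3, Gadd45b and Gadd45g because growth signals, stress and NF-kB are known to induce these. Of 25 immediate early genes tested out of 27, 14 were higher and 1, Nr4a3, was lower, with a median log2 fold change of 0.52. Dusp1, a phosphatase of p38 and JNK, was 9.67-fold higher, at 141 ± 40.4 CPM in EAF2Faslpr cells and 14.5 ± 1.93 CPM in Faslpr cells (adjusted p = 1e-05). Ppp1r15a, also called Gadd34, was 5.25-fold higher (adjusted p = 2.7e-05). Of 16 NF-kB targets and subunits, 10 were higher and 0 lower, with a median of 0.49. Over all genes tested, 7.14% were higher and 4.96% lower, with a median log2 fold change of −0.01. Tnfaip3 (A20) was 2.92-fold higher and Nfkbia 2.64-fold higher (adjusted p = 0.000198 and 0.00025). Whether these genes and the 10 genes share a source of change was not tested.

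**Figure D5:**
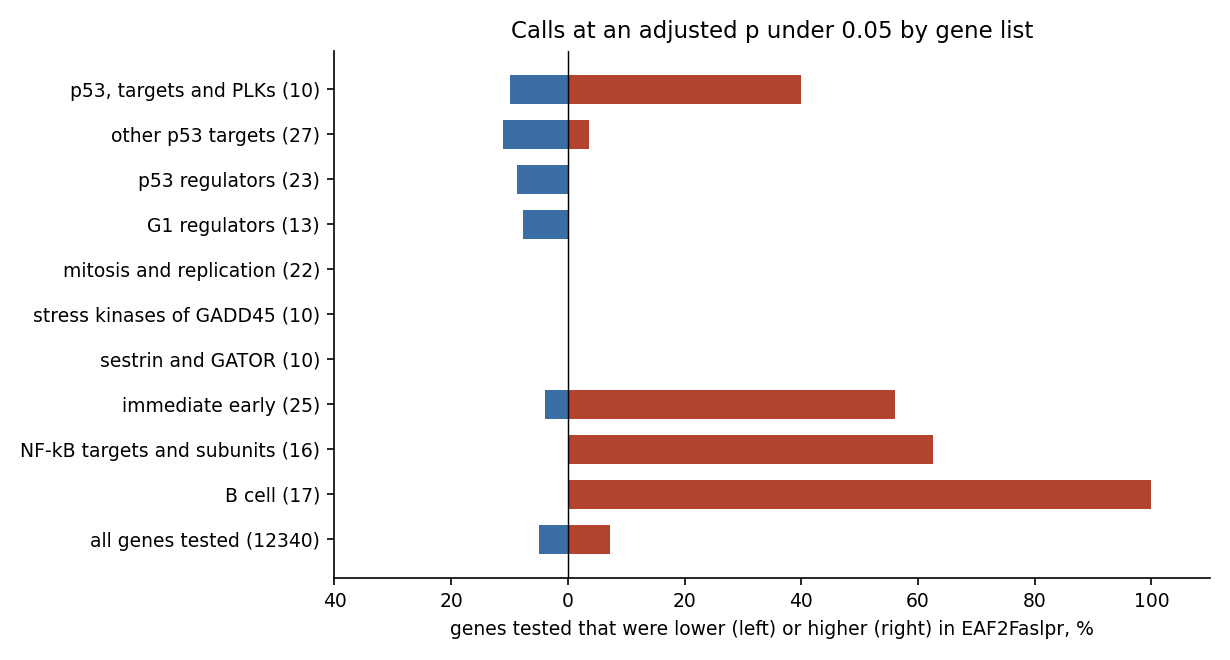
Percent of the tested genes of each list that were lower (left) or higher (right) in EAF2Faslpr than in Faslpr cells at an adjusted p under 0.05, with the number tested in brackets. The axis counts up in both directions from 0. The bottom bar gives all 12340 genes, of which 4.96% were lower and 7.14% higher. The lists of other p53 targets, regulators and cell cycle genes have short bars, and the immediate early, NF-kB and B cell lists have long bars to the right.

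All 17 B cell markers tested were higher in EAF2Faslpr cells, against 7.14% of all genes tested, and none of these markers was at 0 in any library. Their sum was 439, 463, 826 and 452 CPM in EAF2Faslpr replicates 1 to 4 and 119, 166, 195 and 155 CPM in Faslpr replicates 1 to 4. The most abundant was Spib, at 52.6 ± 14.8 CPM in EAF2Faslpr cells and 32.1 ± 5.06 CPM in Faslpr cells. Of 10 genes of MHC class II, 8 were higher, with sums of 615 to 1081 CPM in EAF2Faslpr cells and 269 to 441 CPM in Faslpr cells and with Cd74 the most abundant. Of 14 T cell identity genes, Cd2, Cd8a, Cd8b1 and Cd4 were higher and the rest did not pass. The T cell markers summed to 6697 to 6857 CPM in EAF2Faslpr cells and 6212 to 6502 CPM in Faslpr cells. This sum includes Ptprc, the most abundant of the list, at 2312 ± 114 CPM in EAF2Faslpr cells and 1989 ± 311 CPM in Faslpr cells. The CD3 genes Cd3d, Cd3e, Cd3g and Cd247 had log2 fold changes of 0.01, −0.11, 0.16 and −0.02, and none passed.

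Of 11 macrophage markers, those higher included Cybb and Lyz2, and the sum was 72.3 to 172 CPM in EAF2Faslpr cells and 56.8 to 72.8 CPM in Faslpr cells, with Cd68 the most abundant. The 5 neutrophil markers tested, led by Cxcr2, gave no call (4 at an unadjusted p under 0.05, 1 by DESeq2 and 0 by limma-voom) and summed to 109 CPM in EAF2Faslpr replicate 3 against 12.5 to 19.8 CPM in every other library. Ly6g, Retnlg, Mpo and Elane, which mark neutrophils and their precursors, had no reads in at least 1 library. Of 7 genes of antibody-secreting cells, led by Pou2af1, Xbp1 was lower, with sums of 1658 to 1972 CPM in EAF2Faslpr cells and 1965 to 2218 CPM in Faslpr cells. The 5 dendritic cell markers, led by Tcf4, and the 4 erythroid and platelet markers, led by Hbb-bs, gave no call, and none of either list had an unadjusted p under 0.05 or a call by DESeq2 or limma-voom. The sums were 78.8 to 91.9 CPM in EAF2Faslpr cells and 76.6 to 89.4 CPM in Faslpr cells for the dendritic list, and 4.58 to 21.0 CPM in EAF2Faslpr cells and 5.96 to 25.4 CPM in Faslpr cells for the erythroid and platelet list.

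EAF2Faslpr replicate 3 had the highest sums of B cell, MHC class II, macrophage and neutrophil markers. Without it the log2 fold changes of the 4 genes that rose were 1.58 for Plk2, 1.45 for Plk3, 0.84 for Gadd45b and 1.69 for Gadd45g, and all 4 passed (adjusted p = 0.00927, 0.00724, 0.00292 and 0.00425). The highest EAF2Faslpr level was in that replicate for Plk2 (18.3 CPM), in replicate 1 for Plk3, and in replicate 4 for Gadd45b and Gadd45g. Without Faslpr replicate 4 the log2 fold changes were 1.91 for Plk2, 1.31 for Plk3, 0.92 for Gadd45b, 1.78 for Gadd45g and −0.49 for Ccng1, and all 5 passed (adjusted p = 0.0013, 0.0141, 0.000417, 0.00279 and 0.0245). The B cell sums of EAF2Faslpr replicates 1, 2 and 4 were 439, 463 and 452 CPM, above all Faslpr sums (119 to 195 CPM). The groups therefore remained apart in B cell markers without EAF2Faslpr replicate 3. The part of B cell and other non-T transcripts in the differences of the 10 genes was not tested.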

How the data were processed

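RNA of sorted B220+CD3+ spleen cells was extracted with TRIzol and sequenced on DNBSEQ libraries made with an mRNA kit, per the labels' protocols. The deposited table gave, per library, the authors' estimated counts and TPM values. RSEM 1.3.1, HISAT2 2.2.1 and Bowtie2 2.4.5 are named, with build GRCm39, per the submitters' processing notes. The sources used here give neither their order nor the annotation or strandedness. Of the estimated counts, 36.8% were whole within 0.001, since RSEM divides shared reads. A further 16 per-sample columns were not used.

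Groups came from the sample titles. Estimated counts were rounded, filtered with filterByExpr (12340 genes kept), scaled with TMM and tested over all 8 libraries with edgeR 4.0.16 (quasi-likelihood, R 4.3.3). Benjamini-Hochberg adjustment ran over all tested genes, and an adjusted p under 0.05 passed. Adjusted p-values are from this test unless another is named. CPM are per megaread of the tested genes. TPM was used to compare levels between genes. The tests were checked on simulated counts. DESeq2 1.42.0, limma 3.58.1, other scalings and filters, a replicate block and leaving out libraries were the alternatives. Intervals are 95% intervals of the fitted fold change, and the floor of 3 reads covers counting error only.

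The 10 genes and all lists were chosen with earlier results of these data known. Named by rule were the 10 genes, Eaf2, up to 2 passing genes of each list by smallest p, the 3 nearest profiles and the most abundant marker of each cell type. Named after their values were seen were Cd3e, Ptprc, Ddit4, Psrc1, Bax, Bbc3, Mdm4, Plk1, Plk4, Mapk14, Sesn3, Nr4a3 and the T cell, macrophage and Xbp1 markers. Promoter sequences of all 10 genes were matched by gene ID in RefSeq (GRCm38.p6), and no coordinates were converted. One macrophage marker is not reported here by name.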

Additional observations from a re-analysis of the deposited data

Results flagged for a closer look

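Of 20 groups of 4 libraries (10 genes in 2 genotypes), 3 held a library whose gap to its nearest neighbour exceeded the 95% critical value of Dixon's test. Chance flags about 1 in 20 groups. Plk3 stood highest in Faslpr replicate 3, at 6.22 CPM, and without that library its log2 fold change was 1.46 (adjusted p = 0.00638). Gadd45a stood highest in EAF2Faslpr replicate 3, at 27.3 CPM, and without that library its log2 fold change was 0.18 (adjusted p = 0.379). Gadd45g stood highest in EAF2Faslpr replicate 4, at 5.80 CPM, and without that library its log2 fold change was 1.49 (adjusted p = 0.00427). The gap over range of Gadd45g, 0.8294, lay barely above the critical value, against 0.866 for Plk3 and 0.882 for Gadd45a.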

How the results depend on the processing

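Under 18 alternatives, 180 fold changes of the 10 genes were recomputed, and 165 kept both direction and side of the threshold. Plk2, Plk3, Gadd45b and Gadd45g passed in all 18, and Trp53, Cdkn1a, Mdm2 and Gadd45a in none. Ccng1 lost its call in 8 and Sesn1 gained one in 1. The sign of Cdkn1a turned in 6, with a log2 fold change of 0.012 on log2(TPM + 0.1), 0.18 without both libraries numbered 4, and −0.32 to 0.16 with 1 library left out. The number of the 10 genes that were lower was 0 on log2(TPM + 1), on log2(TPM + 0.1) and without both libraries numbered 4, and 0 to 1 with 1 library left out.

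With 1 library left out, all genes called ranged from 990 (without Faslpr replicate 2) to 1599, against 1493. Those lower ranged from 372 to 659, against 612, and numbered 403 without both libraries numbered 4. Other p53 targets called ranged from 2 to 6, against 4, and numbered 0 without both libraries numbered 4. Regulators of p53 called numbered 1, against 2, with library totals only, with the replicate block, in both TPM settings, without both libraries numbered 4 and in every fit with 1 library left out (1 to 1). G1 regulators ranged from 1 to 2. GADD45 kinases numbered 1 by DESeq2 and without both libraries numbered 4, and 0 to 1 with 1 library left out.

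The replicate numbers gave no consistent pairing of the libraries. Deviations of same-numbered libraries correlated at 0.155, 0.176, 0.056 and −0.061 over 12340 genes. EAF2Faslpr replicates 1 and 2 matched the Faslpr library of the same number best, while replicates 3 and 4 matched Faslpr replicates 4 and 1 best. With the replicate number as a block, 1425 genes and 5 of the 10 passed. No scaling moved the median of all genes by more than 0.1. Cdkn1a and Gadd45g had the fewest reads of the 10 genes, 31 to 97 and 20 to 105 per library.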
